A study of Mus musculus with 3 samples.

Results

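Glycolysis isoforms and lactate transport are represented here by 10 genes, Hk1, Hk2, Pfkfb3, Pfkp, Aldoa, Aldoc, Ldha, Ldhb, Slc16a1 and Slc16a3, of the 21750 features in a single-cell library. They were taken by symbol, and their UMIs (unique molecular identifiers, each standing for 1 counted RNA molecule) were summed per cell type over barcodes with at least 500 genes and at most 15% mitochondrial UMIs. The cells came from the hippocampus of 5 pooled Aldh1l1CreERT2;Rosa26-LSL-tdTomato mice, in which tamoxifen-activated Cre, driven by the astrocyte promoter Aldh1l1, switches on the red reporter tdTomato. These mice had received a hippocampal injection of AAV-TIGRi-Hopx, a Cre-dependent virus with an EGFP reporter that lowers Hopx, a homeodomain-only protein gene, and were sampled 3 weeks after tamoxifen. Cells positive for both reporters had been enriched by sorting. All cells belong to this 1 knockdown library, so no untreated or control-virus cells can be set against them, and no cell can be traced to a mouse. Hopx itself had 3785 UMIs, and with no control library its knockdown could not be checked.

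Glycolysis turns glucose into pyruvate. Hexokinases (Hk) trap glucose inside the cell, phosphofructokinase (Pfk) commits it to the pathway under the control of the Pfkfb enzymes, and aldolases (Aldo) split the sugar. Lactate dehydrogenase converts pyruvate to lactate and back, with the Ldha product usually tied to lactate production and the Ldhb product to lactate use, and monocarboxylate transporters (the Slc16a genes) carry lactate across membranes. In brain, this division of isoforms is best known from the astrocyte and neuron lactate shuttle. Aldoc is a classical astrocyte gene, and Slc16a1 serves blood vessels and glia.

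The 6485 cells kept held 41760631 UMIs, with 610 to 42440 per cell and a median of 5564. Cells were assigned to a type when at least 40% of that type's markers had a UMI and no other type reached 60% of that share. The markers exclude the 10 genes. The names below stand for the cells passing these gates: 2436 microglia, 1483 endothelial, 587 ependymal, 550 choroid plexus, 218 border macrophage (macrophages of the meninges and vessels), 123 astrocyte and 85 oligodendrocyte cells. Neurons numbered 26, and are given only where counts allow. Cells matching no type (471) or 2 types (417) were left out, and they held from 12.97% (Slc16a1) to 21.9% (Pfkp) of the UMIs of a member. The astrocyte gate held 1.90% of the cells although the sort was for astrocyte-lineage reporters, tdTomato had a UMI in 26 of the 123 astrocytes (21.1%) and EGFP in 2, and EGFP was seen in 69 cells in all, 45 of them ependymal. Median marker coverage was 77.8% in astrocytes and between 87.5% and 100% in the other 6 types. Ependymal cells had a median of 3 of the 9 astrocyte markers, and choroid plexus cells a median of 3 of the 9 ependymal markers, so those neighbours are not fully separated by marker content.

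Levels are given in CPM, the UMIs of a gene per 1000000 UMIs of a cell type, with exact 95% Poisson intervals. These, and the exact intervals of ratios and shares, cover counting error only: with 1 library there is no replicate error, no test and no p-value. The library counts molecules at their 3′ ends, so levels of different genes are compared without scaling to length. Fewer cells expressing a gene and less RNA per cell cannot be told apart in a summed level. Free RNA released by other cells also adds UMIs to every droplet. Beside low levels, the carry-over estimate scales a gene's level in every other type by the share of that type's marker level found in the receiving cells. It is given over all of a type's markers and then from the marker that gives the lowest share. The first value is too high wherever a receiving type expresses some of those markers itself. The second takes the lowest of several counted shares and can be too low, so these values are not bounds on the true carry-over.

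Before their levels, the stretch directly upstream of the annotated start is shown for the Hk, Ldh and Slc16a pairs, whose members differ there in 1 short motif, and for Pfkfb3, which also holds it. The motif is ACGTG, the core of the site bound by hypoxia-inducible factors, which are known to drive many glycolysis genes. It was searched on both strands, as ACGTG or CACGT, and CACGTG counts as an overlapping match of both. All 10 genes were matched to RefSeq promoters (GRCm38.p6), and the first annotated start of each was used. In the 70 bases before that start, 4 of 10 genes held a match. Over every annotated start, 5 of the members' 16 windows held one, against 5.86% of 32851 windows of the same length over all genes. The 4 are Hk2, Pfkfb3, Ldha and Slc16a3, and the partners Hk1, Ldhb and Slc16a1 held none. Matches are in capitals.
Hk1, chr10:62379909-62379978, minus strand: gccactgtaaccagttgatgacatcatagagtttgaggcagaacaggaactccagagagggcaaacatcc
Hk2, chr6:82774455-82774524, minus strand: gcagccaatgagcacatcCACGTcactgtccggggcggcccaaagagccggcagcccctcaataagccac
Pfkfb3, chr2:11553930-11553999, minus strand: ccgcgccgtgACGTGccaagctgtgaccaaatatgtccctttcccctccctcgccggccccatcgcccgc
Ldha, chr7:46845734-46845803, plus strand: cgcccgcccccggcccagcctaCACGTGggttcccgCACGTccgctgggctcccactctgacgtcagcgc
Ldhb, chr6:142507958-142508027, minus strand: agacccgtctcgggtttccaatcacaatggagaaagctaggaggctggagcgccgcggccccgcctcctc
Slc16a1, chr3:104638594-104638663, plus strand: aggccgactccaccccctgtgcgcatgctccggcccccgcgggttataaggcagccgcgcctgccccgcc
Slc16a3, chr11:120948997-120949066, plus strand: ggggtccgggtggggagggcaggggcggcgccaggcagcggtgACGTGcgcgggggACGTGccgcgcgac
A match describes these letters and is not a measured binding site. Aldoa, Aldoc and Pfkp had no match in the window of their first start. Other starts can differ: the second Ldha window held 0 matches and the second Pfkfb3 window 2.

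Hexokinase split the cells into 2 camps: Hk2 in microglia and border macrophages, Hk1 in every other type with at least 50 cells. Hk2, the inducible hexokinase, reached 609 CPM in microglia (597 to 621) and 355 in border macrophages (319 to 394). It was far lower elsewhere, at 32.9 in ependymal cells, 15.5 in astrocytes, 14.3 in oligodendrocytes, 10.0 in endothelial cells and 7.24 in choroid plexus. Astrocytes, oligodendrocytes, endothelial cells and choroid plexus, the 4 lowest, did not differ from the next in this order beyond counting error. Hk1, the constitutive brain hexokinase, ran the other way. Its levels were 107 CPM in choroid plexus, 95.2 in astrocytes, 81.5 in ependymal and 78.6 in endothelial cells, which neighbour by neighbour did not differ beyond counting error. Oligodendrocytes had 38.0, border macrophages 20.1 and microglia 12.1.

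Of the UMIs of Hk1 and Hk2 together, Hk2 made up 98.0% in microglia (10288 of 10493 UMIs, Clopper-Pearson interval 97.8% to 98.3%) and 94.6% in border macrophages (91.8% to 96.7%). Its share was 28.8% in ependymal cells (24.5% to 33.3%), 27.3% in oligodendrocytes (13.3% to 45.5%), 14.0% in astrocytes (6.26% to 25.8%), 11.3% in endothelial cells (8.73% to 14.3%) and 6.37% in choroid plexus (4.66% to 8.45%). The macrophage shares and all others are therefore separated by far more than counting error. Hk2 had a UMI in 92.8% of microglia at a median depth of 6558.5 UMIs and in 5.64% of choroid plexus cells at 10629. With cells thinned to 2000 UMIs those shares were 64.0% and 2.03%.

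Low Hk2 counts outside the macrophages need their background beside them. In endothelial cells the carry-over estimate was 11.1 CPM over all markers and 4.22 by the lowest marker, against 10.0 measured. All 60 endothelial Hk2 UMIs lay in 27 of 1483 cells, 10 of them in 1 cell, and without barcodes called as doublets the level was 6.63. In astrocytes the estimates were 11.4 and 5.27 against 15.5 measured, and in oligodendrocytes 10.9 and 5.01 against 14.3. In ependymal cells the estimates, 12.8 and 2.90, were both below the 32.9 measured. For oligodendrocytes the split depends on how cells are grouped: with clusters in place of gates, Hk2 was 36.2 CPM and 50% of the pair.

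Other hexokinases added type-specific pieces. Hk3, a hexokinase of myeloid cells, was 57.4 CPM in border macrophages and 33.6 in microglia, which made 13.2% and 5.13% of hexokinase UMIs there. Hkdc1, a hexokinase-like gene, was 38.2 in ependymal cells, 24.96% of their hexokinase UMIs, and at most 1.01 in the other 6 types. No UMI of Hk3 or Hkdc1 was found in astrocytes or oligodendrocytes.

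**Figure D1:**
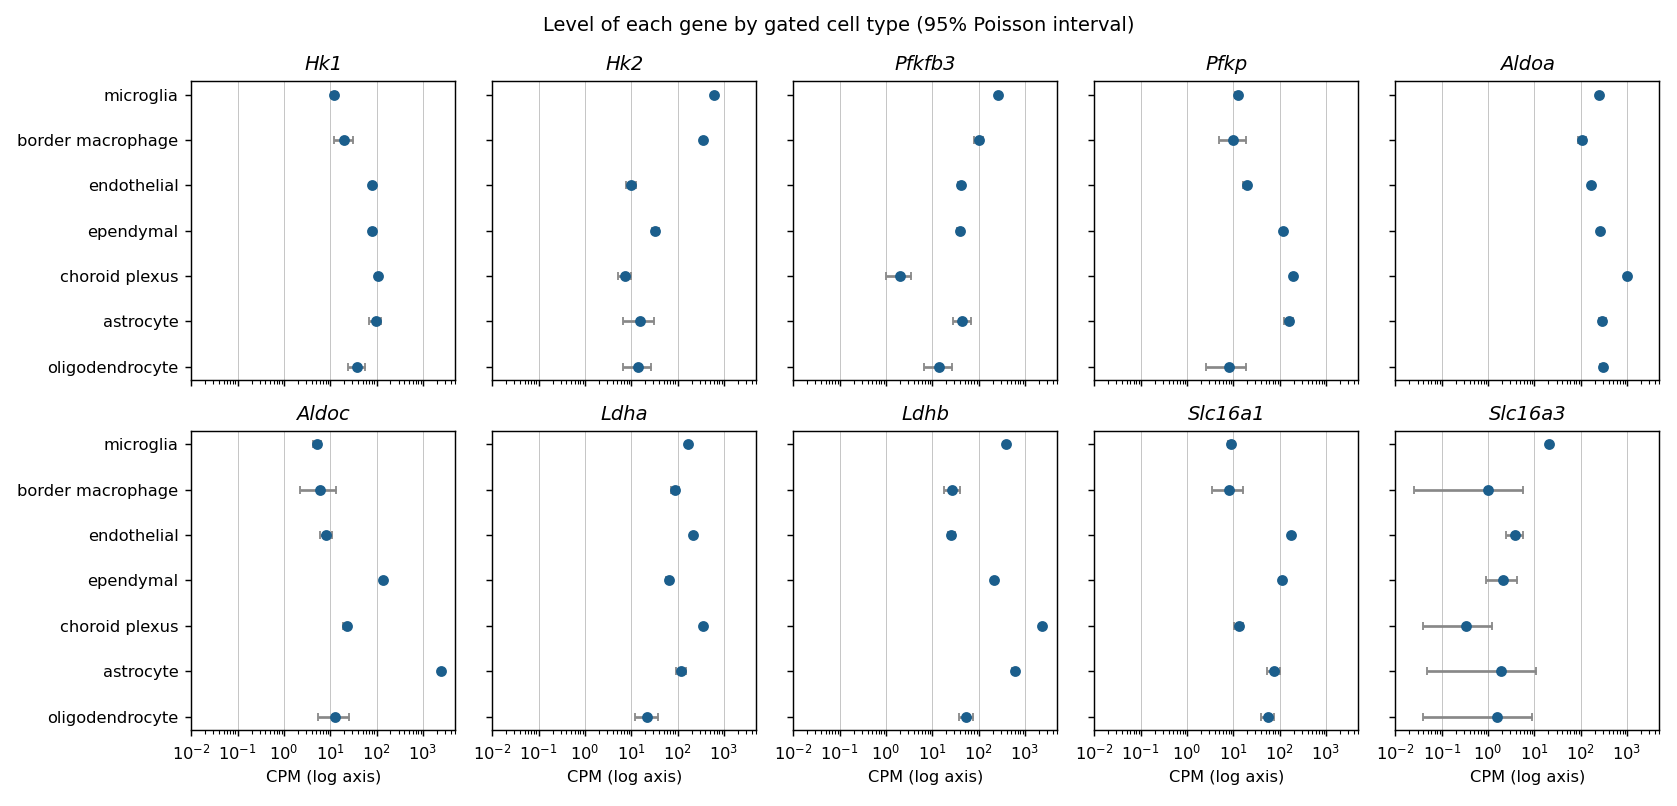
Each panel shows 1 gene, with the level on a log axis in CPM and the 7 cell types in rows. Points are summed levels and bars the 95% Poisson intervals. Hk2, Pfkfb3 and Slc16a3 are highest in microglia, Aldoc in astrocytes, Slc16a1 in endothelial cells, and Hk1, Pfkp, Aldoa, Ldha and Ldhb in choroid plexus.

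At the commitment step, Pfkfb3 and Pfkp were opposed in the macrophage types and choroid plexus, while oligodendrocytes were low for both. Pfkfb3 makes fructose 2,6-bisphosphate, the strongest activator of phosphofructokinase. Its level was 258 CPM in microglia (251 to 266) and 99.6 in border macrophages (81.0 to 121). Astrocytes with 44.7, endothelial cells with 41.4 and ependymal cells with 39.8 could not be ordered beyond counting error. Oligodendrocytes had 14.3 and choroid plexus 1.98 (1.02 to 3.45), the latter below its all-marker carry-over estimate of 4.34 and above the lowest-marker estimate of 0.364. Pfkfb3 was the main Pfkfb gene in microglia (86.3% of 5058 family UMIs), endothelial cells (82.9%), border macrophages (64.3%), ependymal cells (60.2%) and astrocytes (57.5%). Pfkfb4 took 34.4% in border macrophages.

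Pfkp, the platelet-type phosphofructokinase subunit, also abundant in brain, was 190 CPM in choroid plexus, 155 in astrocytes and 115 in ependymal cells. Levels fell to 19.4 in endothelial cells, 12.4 in microglia, 10.1 in border macrophages and 7.92 in oligodendrocytes. The step from ependymal to endothelial cells was a ratio of 5.97 (4.85 to 7.39), while choroid plexus and astrocytes did not differ beyond counting error. The order of astrocytes and ependymal cells turned with thinning. With cells thinned to 2000 UMIs the astrocyte level was 100 CPM, and the ependymal to astrocyte log2 ratio went from -0.44 to 0.28. Pfkp was the leading phosphofructokinase subunit only in choroid plexus, with 59.4% of Pfkp, Pfkl and Pfkm UMIs. Pfkl, the liver-type subunit, led in microglia (79.6%), endothelial cells (69.8%), border macrophages (65.0%) and oligodendrocytes (64.3% of 14 UMIs). Pfkm, the muscle-type subunit, was ahead in astrocytes with 49.2% against 41.9% for Pfkp, a difference of 94 against 80 UMIs. In ependymal cells Pfkl and Pfkp were close, at 43.2% and 41.5%.

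The aldolases gave the sharpest single division. Aldoc was at 2501 CPM in astrocytes (2367 to 2642), from 1288 UMIs, and at 140 in ependymal cells (129 to 153). Choroid plexus had 22.7, oligodendrocytes 12.7, endothelial cells 8.18, border macrophages 6.04 and microglia 5.21, and neighbours in that run did not differ beyond counting error. Its ends did, with intervals of 19.1 to 26.8 in choroid plexus and 4.18 to 6.42 in microglia. The 26 neurons had 0 Aldoc UMIs, which allows a level of up to 26.0 CPM by a floor of 3 counts. Aldoa, the aldolase of most tissues, had the highest level of all members in its lowest type. It was at 1013 CPM in choroid plexus, 303 in oligodendrocytes, 293 in astrocytes, 258 in ependymal cells, 251 in microglia, 165 in endothelial cells and 109 in border macrophages. The 4 types from oligodendrocytes to microglia did not differ from their neighbours beyond counting error. The intervals of oligodendrocytes (261 to 349) and microglia (243 to 258) did not overlap.

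Aldoc made up 89.5% of Aldoa and Aldoc UMIs in astrocytes (87.8% to 91.0%) and 35.2% in ependymal cells (32.8% to 37.7%). In the other 5 types the share ran from 2.04% in microglia to 5.26% in border macrophages. In ependymal cells 211 of 587 carried UMIs of both genes, 207 only of Aldoa and 66 only of Aldoc, so the mixed share was not made up of separate Aldoa and Aldoc cells alone. The ependymal level of Aldoc lay between its carry-over estimates of 197 over all astrocyte markers, several of which ependymal cells share, and 4.26 by the lowest marker. In endothelial cells the estimates of 17.8 and 4.21 bracketed the measured 8.18, and in microglia the estimates were 3.64 and 0.738. Choroid plexus had estimates of 48.3 and 0.882 against 22.7 measured, and border macrophages 6.65 and 1.77 against 6.04. For oligodendrocytes the estimates were 3.72 and 2.69 against 12.7. A UMI of Aldoc was found in 84.6% of astrocytes (median depth 3553), against 3.03% of endothelial cells (median depth 3524), which are not known to express it.

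Astrocyte levels also moved with depth. In cells above the median depth, Aldoc was 2856 CPM against 1452 in those below, a ratio of 1.97 (1.68 to 2.31), and Ldhb was 694 against 307, a ratio of 2.26 (1.61 to 3.23). Pfkp was 182 against 76.8, a ratio of 2.37 (1.21 to 5.15), and Aldoa 343 against 146, a ratio of 2.35 (1.45 to 4.03). With cells weighed equally the astrocyte level of Aldoc was 2022. Its share of the aldolase pair stayed between 89.3% and 90.6% under the 6 alternative settings.

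**Figure D2:**
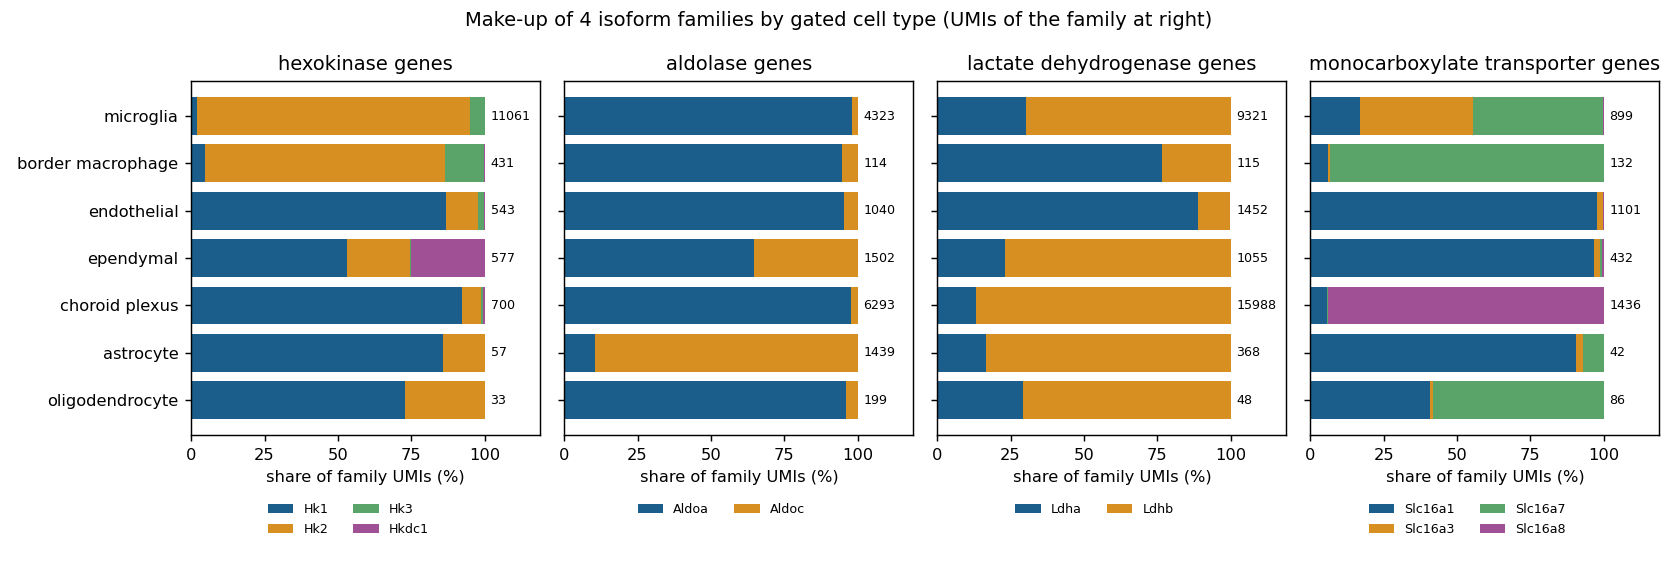
Stacked bars give the share of UMIs of each gene, in percent, within 4 families, with the 7 cell types in rows and the UMIs behind each bar at its right end; Ldhc, at most 0.344%, is not drawn. The hexokinase bars of microglia and border macrophages are mostly Hk2, the astrocyte aldolase bar is 89.5% Aldoc, and the choroid plexus transporter bar is 93.9% Slc16a8.

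For lactate dehydrogenase, Ldhb was the larger gene in 5 of the 7 types, and Ldha in endothelial cells and border macrophages. Ldhb stood at 2281 CPM in choroid plexus (2243 to 2319), 596 in astrocytes (531 to 667), 386 in microglia (376 to 395) and 216 in ependymal cells. Oligodendrocytes had 53.9, border macrophages 27.2 and endothelial cells 25.9, and the last 2 did not differ beyond counting error. Ldha varied less. It was 351 in choroid plexus, 216 in endothelial cells, 166 in microglia, 118 in astrocytes, 88.6 in border macrophages, 64.2 in ependymal cells and 22.2 in oligodendrocytes.

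The Ldhb share of both was 86.7% in choroid plexus (86.1% to 87.2%), 83.4% in astrocytes (79.2% to 87.1%), 77.1% in ependymal cells (74.4% to 79.6%), 70.8% in oligodendrocytes (55.9% to 83.1%) and 69.9% in microglia (69.0% to 70.9%). It was 23.5% in border macrophages (16.1% to 32.3%) and 10.7% in endothelial cells (9.17% to 12.4%). Neurons, with 56 UMIs, had 60.7% (46.8% to 73.5%). Microglia and border macrophages, which shared Hk2, thus sat on opposite sides of an even split for Ldh. In border macrophages the measured Ldhb level of 27.2 was below the all-marker carry-over estimate of 65.6 and above the lowest-marker estimate of 8.02, and under the stricter gate it was 13.3 with a share of 13.4%. Border macrophages had a median of 2 of 8 microglial markers per cell. In ependymal cells the Ldhb level of 216 was little above the all-marker estimate of 187, of which choroid plexus gave 133. The lowest-marker estimate there was 5.93. The part of carry-over in the ependymal Ldhb share was not tested. The endothelial Ldhb level was above both of its estimates. UMIs of both genes were found in 91.3% of choroid plexus cells, 50.4% of microglia, 20.3% of ependymal cells and 4.71% of oligodendrocytes.

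Among the lactate transporters, Slc16a1, which encodes MCT1, was at 179 CPM in endothelial cells (169 to 190), 111 in ependymal cells (101 to 122), 73.8 in astrocytes (52.2 to 101) and 55.5 in oligodendrocytes (38.6 to 77.2). Choroid plexus had 13.2, microglia 8.94 and border macrophages 8.05. Astrocytes and oligodendrocytes did not differ beyond counting error, nor did microglia and border macrophages.

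Slc16a3, which encodes MCT4, the transporter usually tied to lactate export, was seen mainly in microglia. Its microglial level was 20.7 CPM (18.5 to 22.9), from 349 UMIs in 279 cells, where the all-marker carry-over estimate was 0.0362. Endothelial cells had 3.84 from 23 UMIs in 14 cells, 8 of them in 1 cell, and 1.63 when clusters replaced gates. Ependymal cells had 8 UMIs, choroid plexus 2, and astrocytes, oligodendrocytes and border macrophages 1 each. Border macrophages thus had 1.01 CPM (0.0255 to 5.61). Of the pair Slc16a1 and Slc16a3, Slc16a3 was 69.8% in microglia (65.6% to 73.8%) and 2.09% in endothelial cells (1.33% to 3.13%). Only 17 microglia had UMIs of both, against 262 with Slc16a3 alone and 121 with Slc16a1 alone, at depths where most cells had neither.

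The pair leaves out the transporter with the most UMIs in 4 types: choroid plexus, border macrophages, oligodendrocytes and microglia. Slc16a8, which encodes MCT3 of the retinal pigment epithelium and choroid plexus, was at 222 CPM in choroid plexus and at most 0.531 in the other 6, and made 93.9% of choroid plexus transporter UMIs. Slc16a7, which encodes the high-affinity MCT2, was at 124 in border macrophages, 79.2 in oligodendrocytes and 23.4 in microglia. It made 93.2% of transporter UMIs in border macrophages. In oligodendrocytes Slc16a7 made 58.1% (47.0% to 68.7%) against 40.7% (30.2% to 51.8%) for Slc16a1. In microglia it made 44.0% (40.8% to 47.4%), Slc16a3 38.8% (35.6% to 42.1%) and Slc16a1 16.8%. For oligodendrocytes and microglia the intervals of the leading gene and the next overlapped. The border macrophage level of Slc16a7 stood against carry-over estimates of 4.75 and 0.256. Bsg, which encodes the partner basigin that takes MCT1 and MCT4 to the membrane, was at 7288 in endothelial cells and 5677 in choroid plexus, and between 170 and 388 in the other 5 types. Emb, which encodes embigin, the partner of MCT2, was at 356 in choroid plexus and at 21.1 in border macrophages. It did not follow Slc16a7 across types. Emb also reached 20 CPM in ependymal cells, where Slc16a7 was at 1.06, and stayed under 20 in oligodendrocytes.

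**Figure D3:**
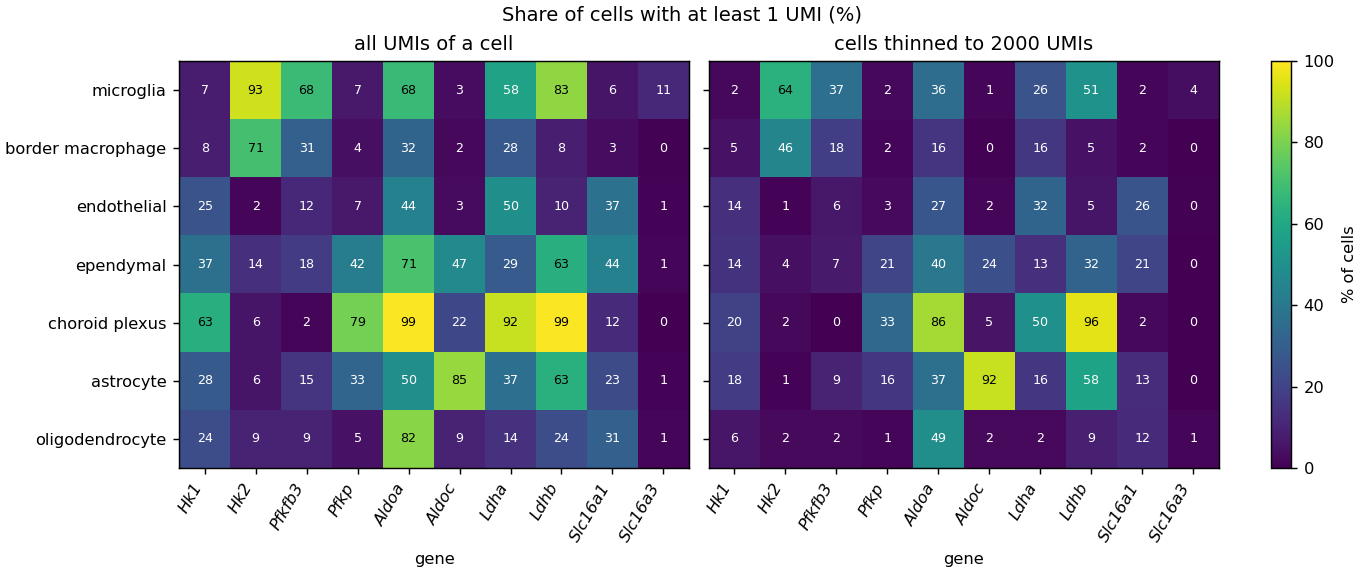
Colour and number give the percent of cells with at least 1 UMI for the 10 genes (columns) in 7 cell types (rows), with all UMIs on the left and with cells thinned to 2000 UMIs on the right. Hk2 in microglia goes from 92.8% to 64.0% on thinning and Aldoc in astrocytes from 84.6% to 91.6% over the 95 cells deep enough, while both stay low in the types at the other end.

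Pairs of types were compared over all genes. A gene was called higher or lower when it reached 20 CPM in one type, differed at least 2-fold and had a ratio interval on one side of 1. These are descriptions of 1 library, and several comparisons share the astrocytes or the microglia. Cell types differ in so many genes that the background is large, and the members' counts are read against it.

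Between astrocytes and microglia, 4 of 10 members were higher and 3 lower in astrocytes, against 36.5% and 20.6% of 8834 genes, so the share of higher members was near the background. The ratios were 480 for Aldoc (387 to 603), 12.5 for Pfkp (9.54 to 16.2), 8.26 for Slc16a1 (5.63 to 11.9) and 7.85 for Hk1 (5.62 to 10.8). Hk2 was at 0.0255 of its microglial level (0.0110 to 0.0503), Pfkfb3 at 0.173 and Slc16a3, with 1 UMI, at 0.0940 (0.00237 to 0.527). Aldoa, Ldha and Ldhb stayed within 2-fold. The glycogen genes stood out beside them: 7 of 8 were higher in astrocytes and none lower, with a median log2 ratio of 2.56 against 0.48 over all genes. Pygb, the brain glycogen phosphorylase, was at 507 against 22.4 CPM, and Ugp2, which makes the glycogen precursor UDP-glucose, at 375 against 34.5. Among the 8 of 9 genes of pyruvate entry that were measured, 4 were higher and none lower, led by Pdk4, an inhibitory kinase of pyruvate dehydrogenase, at 83.5 against 0.296. Immediate early genes, which respond to cell stress and dissociation, summed to 658 CPM in astrocytes and 9587 in microglia; their part in these differences was not tested.

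Against endothelial cells, 3 of the 8 members tested were higher in astrocytes (28.1% of genes) and 1 lower (21.4%). Aldoc was higher by a ratio of 306 (230 to 416), Ldhb by 23.1 (18.9 to 28.1) and Pfkp by 8.03 (5.96 to 10.8), and Slc16a1 was at 0.411 of the endothelial level (0.290 to 0.568). Slc2a1, the glucose transporter of the blood-brain barrier, was at 3606 CPM in endothelial cells and 56.3 in astrocytes. Endothelial cells also exceeded microglia in 2 of 8 members (26.1% of genes), with Slc16a1 at a ratio of 20.1 (16.9 to 24.0) and Hk1 at 6.48 (5.49 to 7.67). They were lower in 4 (18.6%), Hk2, Pfkfb3, Ldhb and Slc16a3. Ldha differed by a ratio of 1.30 only.

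Border macrophages and microglia are both macrophages. Over all genes 12.7% of 6990 genes were higher and 8.94% lower in border macrophages. None of the 7 members tested was higher and 4 were lower: Ldhb at 0.0705 of the microglial level (0.0464 to 0.103), Slc16a3 at 0.0487 (0.00123 to 0.273), Pfkfb3 at 0.386 (0.313 to 0.471) and Aldoa at 0.434 (0.355 to 0.525). Hk2, at 0.584, stayed within 2-fold. Of the 8 other glycolysis genes measured, only Pkm, the pyruvate kinase gene, was called, at 0.348. Slc2a5, the fructose transporter known from microglia, was at 35.9 CPM in microglia and 2.01 in border macrophages, while Slc2a3, a high-affinity glucose transporter, was at 9.94 and 34.2.

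Choroid plexus and ependymal cells are neighbouring epithelia of the ventricle. In choroid plexus 3 of 9 members were higher, against 11.0% of 8517 genes, and 4 lower, against 53.1%. The median gene was lower by 1.14 on the log2 scale in choroid plexus, and the ratios below are not corrected for this. Ldhb was higher by a ratio of 10.6 (9.85 to 11.4), Ldha by 5.46 (4.78 to 6.27) and Aldoa by 3.92 (3.67 to 4.20). Pfkfb3 was at 0.0496, Slc16a1 at 0.119, Aldoc at 0.162 and Hk2 at 0.220. The log2 ratio of Hk2, -2.17, was -3.33 with clusters and -1.04 with cells thinned. Of 9 other glycolysis genes measured, 6 were higher and none lower, with Pgam1, phosphoglycerate mutase, at 680 against 142 CPM and Eno1, enolase, at 558 against 139. The hypoxia target list had 0 of 5 higher and 2 lower. Median depths were 10629 and 5761 UMIs, and the summed immediate early genes were 141 and 6809 CPM.

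Ependymal cells and astrocytes differed in fewer members: 1 of 9 was higher in ependymal cells (23.5% of genes), Hk2 at a ratio of 2.12 (1.04 to 5.02), and 2 were lower (17.7%), Aldoc at 0.0561 and Ldhb at 0.362. Hk2 fell under 2-fold without doublets, with the stricter gate and with the higher gene minimum, at log2 ratios of 0.91, 0.73 and 0.88. Oligodendrocytes were below astrocytes in 6 of 8 members (24.8% of genes) and above in none (18.0%). The lower ones included Aldoc at 0.00507 (0.00218 to 0.0100), Pfkp at 0.0510, Ldhb at 0.0904 and Ldha at 0.187. Pfkfb3 at 0.319 was also among them, but with clusters in place of gates its log2 ratio was -0.04. Aldoa, at a ratio of 1.03, and Slc16a1, at 0.752, were not called. In the 26 neurons 4 of 8 members were below astrocytes (13% of genes) and none above (21.2%). Ldhb was at 0.493 there, with log2 ratios of -0.84 and -0.88 with equal weights and thinning, both under 2-fold, and Pfkp at 0.390. Aldoc and Pfkfb3 had 0 UMIs. The exact intervals bound neuronal Aldoc at 0.0128 of the astrocyte level but Pfkfb3 only at 0.775, so a 2-fold difference in Pfkfb3 was not shown. Immediate early genes summed to 658 CPM in astrocytes, 6809 in ependymal cells, 5400 in oligodendrocytes and 3357 in neurons, and 7, 7 and 6 of the 7 were called higher than in astrocytes. The median mitochondrial share was 4.57% in astrocytes, 1.67% in ependymal cells, 1.68% in oligodendrocytes and 0.510% in neurons. The part of either in these differences was not tested.

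The comparison nearest to the virus itself was within ependymal cells, 45 with an EGFP UMI against 542 without. Of 9 members tested none was called in either direction, against 3.41% of 8629 genes higher and 2.47% lower. Pfkfb3 was at 68.0 against 36.8 CPM, a ratio of 1.85 (1.15 to 2.86), and Ldhb at 158 against 222, a ratio of 0.711 (0.535 to 0.929). Aldoc had a ratio of 0.696 (0.484 to 0.973). The intervals of Hk1, Hk2, Pfkp, Aldoa, Ldha and Slc16a1 included 1, with the widest for Hk2 from 0.897 to 2.61. Among the pathway lists Hkdc1 was lower in EGFP-positive cells, at 8.16 against 41.5 CPM from 3 and 141 UMIs, and Vegfa higher, at 65.3 against 15.3. EGFP-positive cells also differed in depth, with medians of 6452 and 5662.5 UMIs, and in immediate early genes, at 9310 against 6539 CPM. Neither was tested for its part, and cells without an EGFP UMI may still carry the virus.

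Microglia were then ordered by 3 gene sets outside the members, and the top 25% of cells was set against the bottom 25%. By a set of 6 genes with Spp1, Lpl and Gpnmb, known from lipid-handling microglia, 3 of 7 members tested were higher in the 609 top cells than in the 826 cells with none of these genes (2.92% of 6541 genes) and none was lower (5.2%). Pfkp was at 20.1 against 7.18 CPM, a ratio of 2.79 (1.86 to 4.32), Slc16a3 at 30.6 against 13.7, a ratio of 2.24 (1.65 to 3.07), and Aldoa at 346 against 159, a ratio of 2.18 (1.996 to 2.38). Ldha stayed within 2-fold, with a ratio of 1.71 (1.53 to 1.90). Hk2, the microglial hexokinase, went the other way, at 490 against 754 and a ratio of 0.650 (0.617 to 0.685), as did Ldhb with 0.693 (0.648 to 0.741).

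The isoform balance therefore differed inside microglia. The Ldhb share was 59.98% in the top cells (58.1% to 61.8%) and 78.7% in the bottom cells (77.0% to 80.3%), and the Slc16a3 share of its pair 82.9% (76.8% to 87.9%) and 50% (40.7% to 59.3%). Of 8 other glycolysis genes 4 were higher and none lower: Tpi1 at a ratio of 2.68, Pkm at 2.53, Pgk1 at 2.29 and Gapdh at 2.02. Of 4 hypoxia targets measured, 1 was higher (2.92% of genes) and none lower (5.2%). That gene was Vegfa, at 79.7 against 8.57 CPM. The part of hypoxia was not tested. Slc2a5 was at 7.07 against 77.6. The top cells were deeper, with medians of 8399 and 5115 UMIs, and had fewer immediate early genes, 6693 against 14207 CPM. Deeper microglia as a whole had more Pfkp (ratio 1.65), Aldoa (1.60) and Slc16a3 (1.499), and less Hk2 (0.810). Every member called higher for the Spp1 set was thus also higher in deeper microglia. Among microglia above the median depth the ratios were 2.62 for Pfkp, 1.94 for Aldoa, 2.03 for Slc16a3 and 0.747 for Hk2. Among those below it they were 2.08, 1.79, 1.43 and 0.608, the intervals of Pfkp (0.902 to 4.56) and Slc16a3 (0.716 to 2.72) including 1. Pfkfb3, not called, had a ratio of 0.826 (0.761 to 0.898) in the full ordering, and its direction turned with depth. It was at 0.748 (0.663 to 0.846) above the median depth and 1.17 (1.01 to 1.35) below it. The part of the immediate early genes was not tested.

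By 6 cytokine genes such as Il1b and Tnf, none of 6 members tested was called (1.17% of 6430 genes higher, 1.77% lower). Pfkfb3 had a ratio of 1.27 (1.16 to 1.39), Ldhb 1.32 (1.22 to 1.41), Aldoa 0.701 (0.642 to 0.764) and Ldha 0.746 (0.669 to 0.832), and the Ldhb share was 75.3% in top and 63.3% in bottom cells. By 7 interferon genes none of 6 was called either (3.86% higher, 3.55% lower). Ldha had a ratio of 1.69 (1.51 to 1.90) and Aldoa 1.44 (1.31 to 1.59), and the Ldhb share was 61.6% against 78.4%. Pfkp stayed under 20 CPM in the groups of both sets and so was not tested. Its ratio was 0.523 (0.340 to 0.791) by the cytokine set and 2.29 (1.46 to 3.67) by the interferon set. Above the median depth these Pfkp ratios were 0.417 and 1.62 (0.942 to 2.95), and below it 1.11 (0.468 to 2.70) and 2.60. Hk2 was nearly level in both, with ratios of 1.13 (1.07 to 1.20) and 0.981 (0.928 to 1.04), and it held between 97.3% and 98.3% of its pair in the top and bottom cells of the 3 orderings. Immediate early genes summed to 12639 against 6943 CPM for the cytokine set and 7697 against 13916 for the interferon set. Their part was not tested. Median depths were 6398 and 6294 UMIs, and 7053 and 5358. Above the median depth of microglia the cytokine ratios were 1.47 for Ldhb, 1.37 for Pfkfb3, 0.689 for Aldoa and 0.732 for Ldha. Below it they were 1.09 (0.974 to 1.23), 1.11 (0.966 to 1.28), 0.803 (0.680 to 0.948) and 0.823 (0.676 to 1.003), and only the interval of Aldoa left out 1. For the interferon set Ldha was at 1.66 above and 1.40 below, Aldoa at 1.25 in both and Ldhb at 0.794 and 0.717, with every interval on one side of 1.

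**Figure D4:**
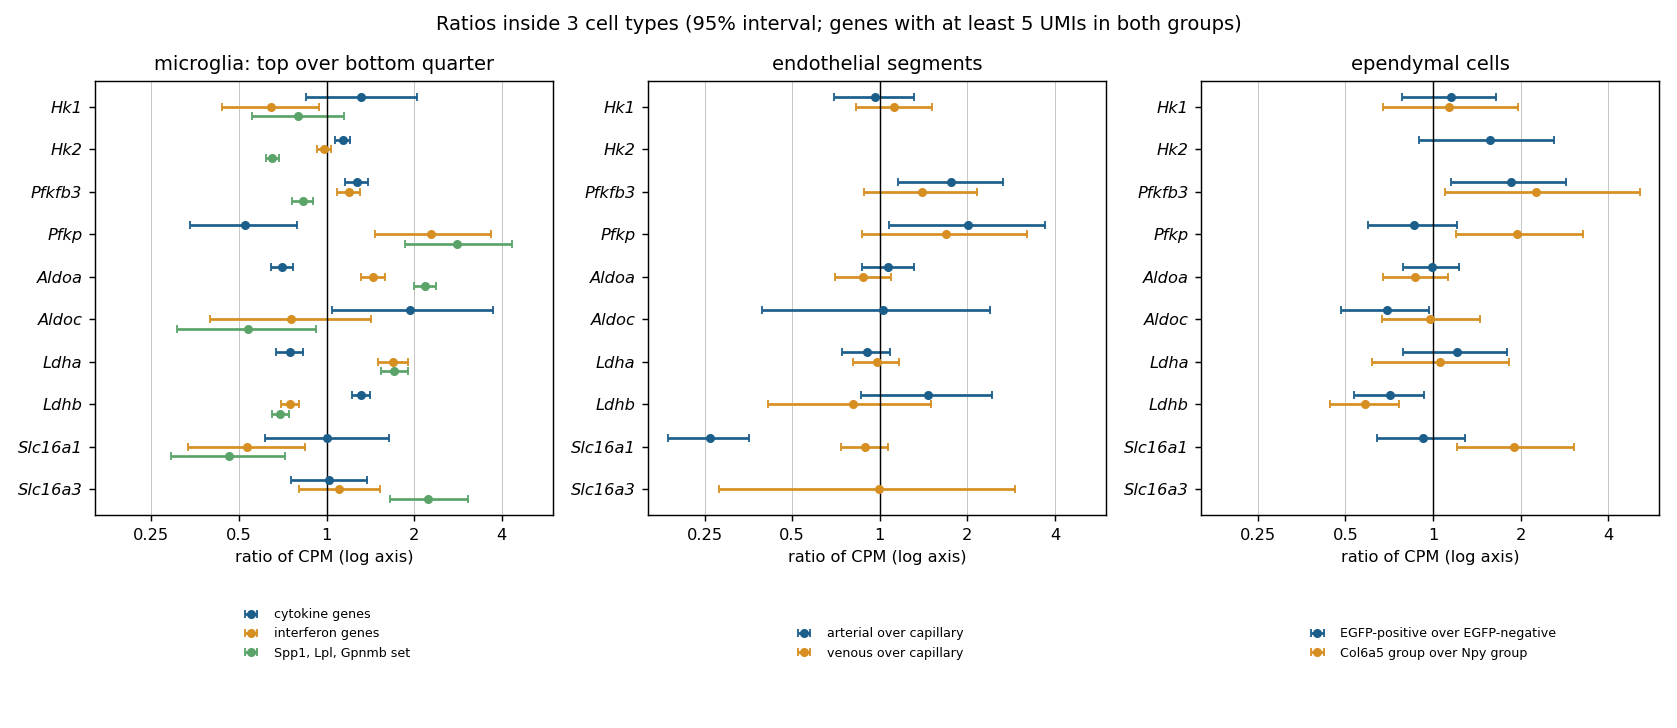
Points are ratios of CPM on a log axis with 95% intervals, by gene in rows. The left panel compares the top with the bottom microglia by 3 gene sets, the middle panel endothelial segments with capillary cells, and the right panel groups of ependymal cells. A gene is drawn where both groups have at least 5 UMIs, which leaves out Hk2 in the Col6a5 and the endothelial comparisons. Aldoa and Ldha lie above 1 and Ldhb below 1 for the Spp1 set, and Slc16a1 lies at 0.261 in arterial cells.

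Endothelial cells were divided by markers of vessel segment into 166 arterial, 114 venous and 573 capillary cells. Slc16a1 was at 58.9 CPM in arterial, 200 in venous and 226 in capillary cells. The arterial to capillary ratio was 0.261 (0.187 to 0.356), while venous and capillary cells did not differ beyond counting error, with a ratio of 0.886 (0.733 to 1.07). Of the 7 members tested, Slc16a1 alone was lower in arterial cells (2.97% of genes). Pfkp alone was higher (3.57%), at 26.8 against 13.3 and a ratio of 2.01 (1.07 to 3.69). The log2 ratio of Pfkp, 1.01, was 0.98 with the stricter gate and 0.95 with equal weights, both under 2-fold, and 2.27 with cells thinned. None of 7 was called between venous and capillary cells, where 2.08% of genes were higher and 2.38% lower. The partner gene Bsg and the glucose transporter Slc2a1 were not called in either comparison. Ldha, the main endothelial lactate dehydrogenase gene, had an arterial ratio of 0.900 (0.744 to 1.08). Median depths were 4146 UMIs in arterial, 6376.5 in venous and 3285 in capillary cells, and immediate early genes summed to 12802, 18714 and 11537 CPM, whose part was not tested.

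Ependymal cells with Col6a5, Nrxn3 and Krt15 (115) were compared with those with Npy, Rspo3 and Clec3b (55). Of 9 members 2 were higher in the first group (8.45% of genes) and none lower (3.67%). Hk2 was at 60.9 against 7.84 CPM, from 36 and 3 UMIs, with a ratio of 7.78 (2.46 to 39.5), and Pfkfb3 at 59.3 against 26.1, with a ratio of 2.27 (1.10 to 5.14). With cells thinned, the log2 ratio of Hk2 went from 2.76 to 1.03 and that of Pfkfb3 from 1.13 to 2.29. Slc16a1, at a ratio of 1.90 (1.21 to 3.05), and Ldhb, at 0.582 (0.444 to 0.763), stayed within 2-fold. Hk2 was thus 46.2% of its pair in the first group (34.8% to 57.8%) and 11.1% in the second (2.35% to 29.2%). The Hk1 ratio was 1.13 (0.671 to 1.96). Immediate early genes summed to 4571 and 9864 CPM in the groups, and their part was not tested.

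Over the 7 types, 6 of the 10 members had a highest level at least 4 times their median level, which 42.3% of 11208 genes also had, and the median of that ratio was 8.02 for the members and 3.03 for all genes. Aldoc (197) and Hk2 (39.2) had the largest, Hk1 (1.36) the smallest. Genes most like each member were found by Pearson correlation over the 7 types among 7986 genes, a description with only 7 points that share 1 library. Ildr1 (0.99) and Hpgds (0.99) were most like Hk2, Nfkb1 (0.99) and Maml3 (0.98) most like Pfkfb3, and Mlph (0.98) and Cxcl13 (0.98) most like Slc16a3. For Aldoc they were Wdr17 (0.999) and Caskin1 (0.998), and for Slc16a1 Pnpla6 (0.99) and Lrrc49 (0.98). Aldoa was closest to Sdhb (0.98) and to Pgam1 (0.97), a later step of glycolysis, and Ldhb to Tm2d3 (0.94) and Eno1 (0.93). Ldha had Tspo (0.94) and Nucb1 (0.92), Pfkp had Kcnk1 (0.99) and Clybl (0.98), and Hk1 had Mocs2 (0.98) and Spg7 (0.97).

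Aldoa and Ldha have many processed copies in the genome, and the sources used here do not say how reads that fit several places were counted, so their levels are less certain than the others. Among related genes in the feature list, Aldoart1 and Aldoart2 had 0 and 1 UMI, and Ldhal6b and Ldhc 3 and 7, against 15713 for Aldoa and 8048 for Ldha.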

How the data were processed

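The deposited matrix holds raw UMI counts for every gene and barcode. Cell Ranger 8.0.1 and the build GRCm39 are named in the submitters' processing notes. The annotation version and the handling of multi-mapped reads: not given in the sources used here. Chromatin samples (anti-Flag and IgG) were not analysed here.

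Of 6672 barcodes, 187 were removed (under 500 genes or over 15% mitochondrial UMIs). The 10 members, the marker and state sets and the 8 pathway lists (58 genes, all found) were chosen with earlier results of these data known. Of 130 marker symbols, 3 were not matched. Scrublet in scanpy 1.11.5 marked 261 barcodes (4.02%) as doublets. They were kept unless gated to 2 types, and an alternative removes them. Microglia were ordered by the summed level of a set per cell, and the top and bottom 25% compared; 108 cells lie within 10% of the upper limit for the Spp1 set, 133 for the interferon set and 252 for the cytokine set. Where over 25% of cells have none of the set's UMIs, the bottom group is those cells. Vessel segments took cells with at least 3 markers of the segment and at most 1 arterial or venous marker of another. Ependymal groups took cells with at least 2 of 3 genes of 1 set and none of the other.

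UMIs were summed per group and scaled to CPM (per 1000000 UMIs). Intervals are exact: Poisson for levels, Clopper-Pearson for shares, and conditional binomial for ratios. They cover counting error only. Genes named are the 10 members, the pathway genes with the largest ratios of each list, and the 2 genes most like each member on log2(CPM + 10). Some genes the rule selects are not printed, and further genes of the fixed pathway lists were named after their values were seen. The ratio intervals and call rule were tested on simulated Poisson counts. These had no variation between cells, so how the intervals hold for UMIs clumped in few cells was not tested. Alternatives varied the cell filter, doublets, clusters in place of gates, gate strictness (60% of markers, others at most 40%), weighing of cells, thinning to 2000 UMIs (reached by 5932 cells) and the lowest level of 50 CPM. A comparison of microglia above and below their median depth was chosen after seeing the data. Python 3.11.15 was used with pandas 2.3.3, numpy 2.4.6, matplotlib 3.10.9, scipy 1.17.1 and igraph 0.11.9.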

Additional observations from a re-analysis of the deposited data

How the results depend on the processing

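The 41 member ratios called between cell types had the same direction in all 246 values under 6 alternatives, and the 7 called within a type in all 42. In 8 and 2 of these values, respectively, the ratio was under 2-fold, among them Hk1 in oligodendrocytes against astrocytes, whose log2 ratio went from -1.31 to -0.66 with equal weights. Among the isoform shares, that of Hk2 in oligodendrocytes alone reached an even split, 50% with clusters. The Hk2 share in endothelial cells was 7.80% without doublets, 6.89% with clusters, 7.56% with the stricter gate, 8.27% with cells weighed equally and 5.88% with cells thinned. The Slc16a3 share in endothelial cells was 0.912%, 0.882% and 1.23% with clusters, equal weights and thinning. With clusters, Hk2 was 39.0% in ependymal and 4.56% in choroid plexus cells, and Ldhb 74.3% in ependymal cells. With the stricter gate, Ldhb was 70.9% in microglia and 13.4% in border macrophages, and Aldoc 31.9% in ependymal cells. With equal weights, Ldhb was 71.5% in microglia. With thinning, Hk2 was 21.1% in ependymal cells and 5.56% in astrocytes, Ldhb 72.5% in ependymal cells, 71.1% in microglia and 87.1% in astrocytes, Aldoc 2.58% in microglia, and Slc16a3 0% in choroid plexus and astrocytes. Counts of called genes moved more. With thinning, neurons had 1209 genes higher and 700 lower than astrocytes, EGFP-positive ependymal cells 126 lower, the cytokine groups 208 lower, the interferon groups 373 lower and the Col6a5 group 371 higher. The stricter gate gave 72 lower for the cytokine groups. With a lowest level of 50 CPM, fewer genes are tested. Astrocytes then had 1945 higher than microglia and 1514 higher than endothelial cells, border macrophages 555 higher than microglia, choroid plexus 2665 lower than ependymal cells and oligodendrocytes 1417 lower than astrocytes. The EGFP comparison had 141 higher and 87 lower, the cytokine groups 44 lower, the interferon groups 132 lower, the Spp1 groups 105 higher and 216 lower, arterial cells 139 higher and 105 lower, venous cells 70 higher and 59 lower, and the Col6a5 group 460 higher and 208 lower. For the shares and the thinned and stricter counts the cause was not tested. No paired analysis was possible because each group holds 1 sample. Depth limits the low members most: Slc16a3 rests on at most 8 UMIs in each of 5 of the 7 types, and neurons on 26 cells.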
